A study of Mus musculus with 10 samples.

Results

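The 10 genes described here carry cells from G1 into S phase. They were followed in the thymus of newborn mice labelled as Usp7 knockouts of the hematopoietic system, and of wild types. The set held the 3 D-type cyclins Ccnd1, Ccnd2 and Ccnd3, the 2 E-type cyclins Ccne1 and Ccne2, the kinases Cdk2, Cdk4 and Cdk6, the retinoblastoma gene Rb1 and the kinase inhibitor Cdkn1b. These 10 genes were taken by symbol from 35375 features of the count table, and all 10 were among the 19511 features with enough counts to test. Ccnd2 was selected on its steep fall in the homozygous knockout, to be set against Ccnd1 and Ccnd3. Its values against that group are therefore given as a description with no test. The other 9 were listed by their role, with earlier results of these data already known.

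Total, ribosome-depleted RNA had been sequenced from the thymus 3 days after birth, in C57BL/6J mice. Of 10 libraries, 3 came from homozygous knockouts of Usp7 in the hematopoietic system, 3 from heterozygous knockouts and 4 from wild types. Of the 4 wild types, 2 carried cre and 2 did not, and the labels do not say which; the driver of the cre is not given in the sources used here. The knockout is labelled as hematopoietic, and Usp7 in stromal cells was not measured apart from the rest of the tissue.

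In background, D-type cyclins bind Cdk4 and Cdk6 and direct them to the retinoblastoma protein, which holds E2F factors in check. Phosphorylation of that protein frees E2F, which drives the E-type cyclins and the genes of DNA replication, and cyclin E with Cdk2 completes the step. Cdkn1b, also called p27, binds cyclin E and Cdk2 and slows the entry into S phase. In thymocytes, Ccnd3 and Cdk6 are the D-type cyclin and kinase best known for the burst of division that follows pre-T-cell receptor signalling, and Ccnd2 is also used by B cells and by progenitors.

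The 3 D-type cyclins differ in their coding sequences while sharing the motif that docks on the retinoblastoma protein. The first 60 coding bases of each are shown, with the 5 codons of that docking motif (a leucine, any residue, a cysteine, any residue, a glutamate) in capitals. They were read from GENCODE M21 transcripts on GRCm38, in the first coding exon of each gene: Ccnd1 at chr7:144939634-144939693 (minus strand), Ccnd2 at chr6:127150714-127150773 (minus strand) and Ccnd3 at chr17:47593655-47593714 (plus strand).
Ccnd1: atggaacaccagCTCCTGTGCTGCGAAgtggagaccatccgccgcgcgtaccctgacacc
Ccnd2: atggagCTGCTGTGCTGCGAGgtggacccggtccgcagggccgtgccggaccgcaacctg
Ccnd3: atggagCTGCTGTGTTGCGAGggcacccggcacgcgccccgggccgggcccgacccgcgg
The motif began at base 13 of Ccnd1 and at base 7 of Ccnd2 and Ccnd3. Over the whole coding sequences, of 888, 870 and 879 bases, Ccnd1 and Ccnd2 were identical at 70.6% of aligned bases, Ccnd2 and Ccnd3 at 69.4%, and Ccnd1 and Ccnd3 at 67.2%.

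Library totals ran from 39.8 to 122 M counts. Usp7 itself, a deubiquitinating enzyme, was checked first: it lay between 589 and 676 CPM (read counts divided by the library's size after trimmed-mean scaling) in the wild types, between 472 and 516 in the heterozygous and between 303 and 422 in the homozygous knockouts, with no overlap between the groups. The homozygous mean was 59.7% of the wild-type mean and the heterozygous mean 79.2%, so the transcript was reduced and not absent. The heterozygous difference was not called (edgeR quasi-likelihood test, adjusted p = 0.608). Levels of Xist and Ddx3y placed 1 of 4 wild types, 3 of 3 heterozygous and 2 of 3 homozygous mice as male, so sex was not balanced. The thymocyte genes Rag1, Cd4, Cd8a and Tcf7 were abundant in every library, as the labelled tissue requires. In bulk tissue, fewer cells of a type and less RNA per cell cannot be told apart.

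Ccnd2, the cyclin picked for its fall, had the steepest difference of the set. Its level was 193, 184, 227 and 142 CPM in the 4 wild types and 171, 164 and 178 CPM in the 3 heterozygous knockouts. In the 3 homozygous knockouts it was 44.4, 35.5 and 29.6 CPM. The homozygous libraries therefore lay far under every other library, whereas the heterozygous libraries lay inside the wild-type range. The homozygous mean of 36.5 ± 7.42 CPM (SD, n = 3) was 19.6% of the wild-type mean of 186 ± 35.1 CPM (SD, n = 4), a log2 difference of -2.35 (SE 0.16), and -2.23 (SE 0.17) against the heterozygous knockouts. Because this fall chose the gene, it was not tested.

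Ccnd1, a D-type cyclin that follows mitogen signals in many tissues, was also lower in the homozygous thymus. It stood at 7.46, 8.54, 7.19 and 7.23 CPM in the wild types and at 6.999, 7.48 and 7.68 CPM in the heterozygous knockouts. The homozygous libraries held 3.86, 4.45 and 3.71 CPM, under all of the others. The log2 fold change was -0.92 (SE 0.12) against wild type, with an adjusted p of 0.000243 (edgeR quasi-likelihood test, Benjamini-Hochberg over 19511 features), and -0.88 (SE 0.12) against heterozygous, with an adjusted p of 0.000641. Both differences passed the threshold under each of 20 alternative settings. Exons of Ccnd1 overlap LTO1 on the other strand; the library kit keeps strand, and how the counting used it is not given in the sources used here.

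Ccnd3, the D-type cyclin that thymocytes need for their expansion, moved the other way. Wild-type levels were 696, 795, 811 and 709 CPM and heterozygous levels were 756, 776 and 771 CPM. Homozygous levels were 1134, 983 and 1059 CPM, above all other libraries. The log2 fold change was 0.49 (SE 0.07) against wild type (adjusted p = 0.000484) and 0.46 (SE 0.08) against heterozygous (adjusted p = 0.00159), and it passed the threshold in all 20 alternative settings of each comparison. Ccnd3 shares exon bases with Bysl on the other strand.

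**Figure D1:**
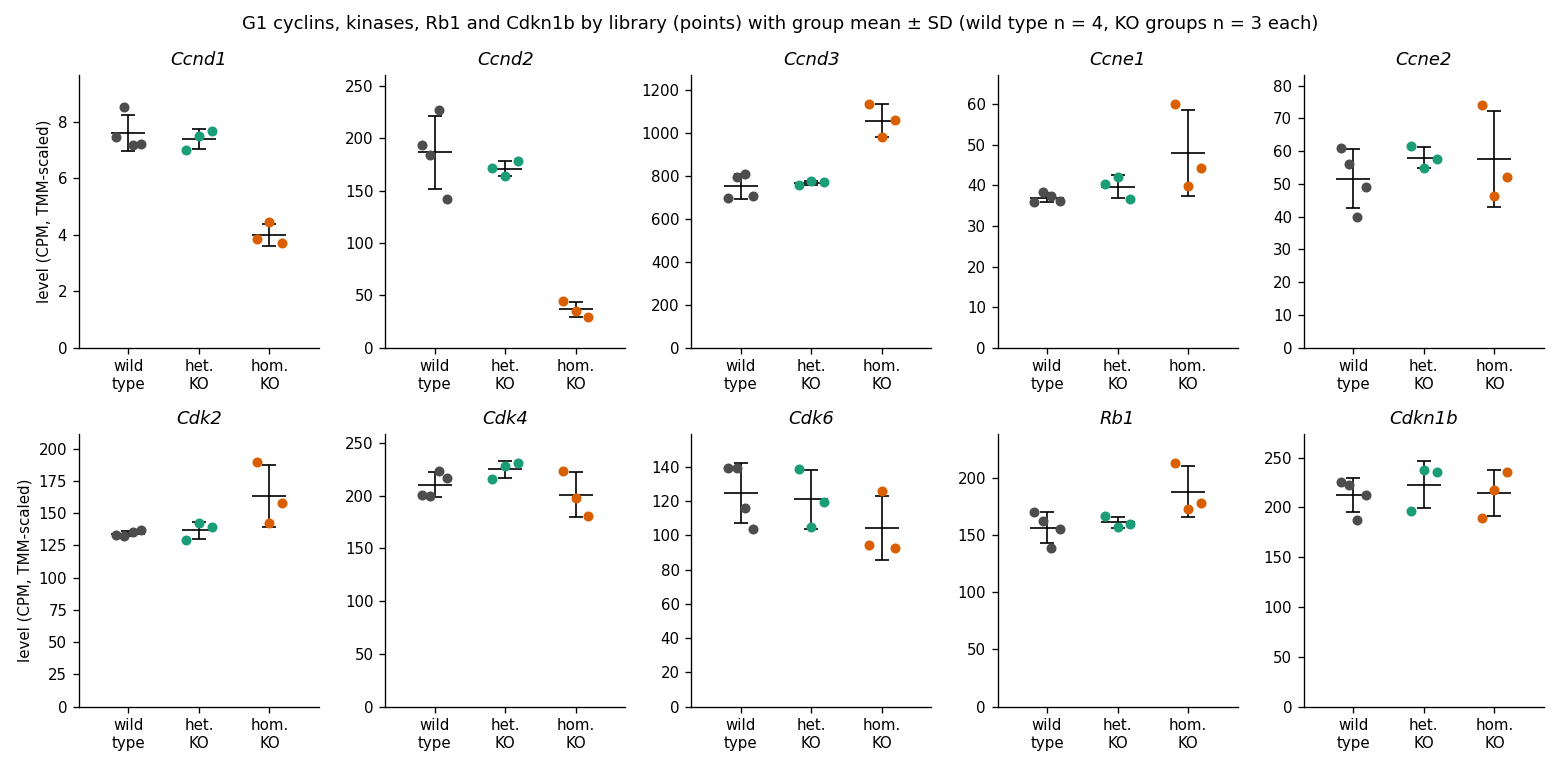
Level of each of the 10 genes in CPM (y axis of each panel, from 0) in the wild-type, heterozygous and homozygous libraries (points), with the group mean and SD. The homozygous points of Ccnd2 (29.6 to 44.4 CPM) and Ccnd1 (3.71 to 4.45 CPM) lie under all other libraries, and those of Ccnd3 (983 to 1134 CPM) above them.

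The make-up of the D-type cyclin transcripts was then compared per length, as CPM per kb of merged exon, since only per length can levels of different genes be set side by side. Ccnd3 made up 80.1 ± 2.30% (SD, n = 4) of the summed D-type level in wild type, Ccnd2 18.4 ± 2.39% and Ccnd1 1.51 ± 0.149%. In the heterozygous knockouts the Ccnd2 share was 16.9 ± 0.669% (SD, n = 3). In the homozygous knockouts Ccnd3 reached 96.2 ± 0.529%, while Ccnd2 held 3.09 ± 0.502% and Ccnd1 0.684 ± 0.110% (SD, n = 3). The summed level was 107 ± 9.48 CPM per kb in wild type, 107 ± 1.30 in heterozygous and 125 ± 9.02 in homozygous thymus. The sum was thus no lower in the homozygous libraries, and their range of 117 to 135 CPM per kb overlapped the wild-type range of 97.4 to 118. With the longest transcript in place of the merged exons, the Ccnd2 share was 12.9%, 11.9% and 2.05% in the 3 groups, in the same order.

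**Figure D2:**
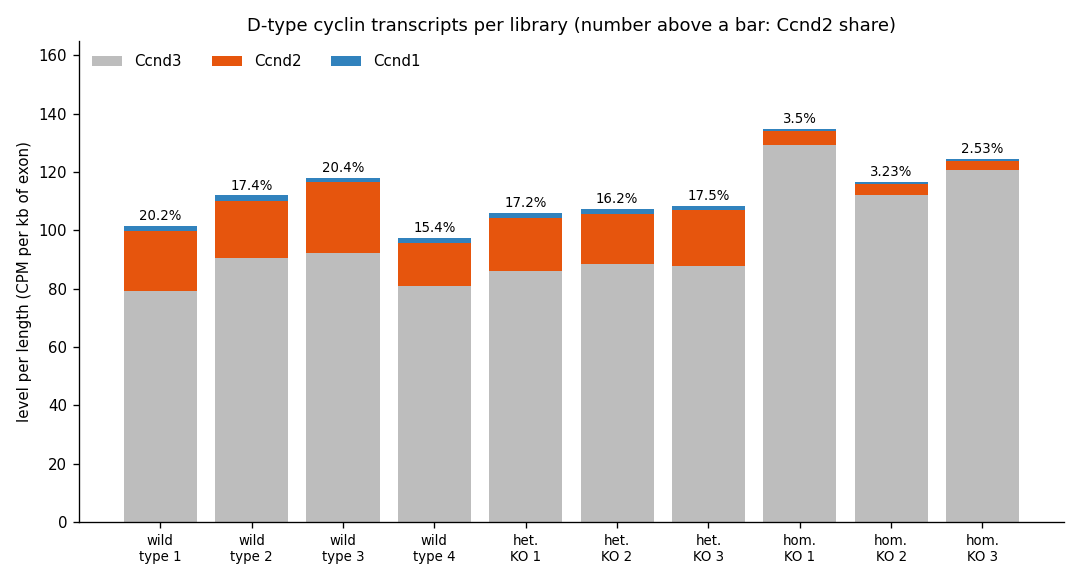
Stacked level per length (CPM per kb of exon, y axis from 0) of Ccnd3, Ccnd2 and Ccnd1 in each of the 10 libraries, with the Ccnd2 share in percent above each bar. The Ccnd2 band takes 18.4% of the bar on average in wild type and 3.09% in the homozygous knockouts.

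A ratio within a library does not depend on how libraries are scaled. The log2 ratio of Ccnd3 to Ccnd1 was between 6.54 and 6.82 in wild type, between 6.65 and 6.75 in heterozygous and between 7.79 and 8.20 in homozygous libraries. The homozygous mean was 1.42 above the wild-type mean, with no overlap (exact permutation test, two-sided, p = 0.0286, the smallest that 3 against 4 allows, and 0.257 after Benjamini-Hochberg adjustment over 9 such tests). The ratio of Ccnd3 to Ccnd2, given with no test, was 2.03 ± 0.233 in wild type (SD, n = 4), 2.17 ± 0.0693 in heterozygous and 4.87 ± 0.252 in homozygous thymus (SD, n = 3 each). Ccnd2 also stood lower against Ccnd1, by 1.43 on the log2 scale between the homozygous and wild-type means.

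The kinases that D-type cyclins bind did not pass the threshold. Cdk4 was at 201, 200, 223 and 217 CPM in wild type, at 216, 228 and 231 CPM in heterozygous and at 223, 198 and 181 CPM in homozygous libraries, and the groups overlapped. Its log2 fold change in the homozygous knockout was -0.07 (SE 0.07, adjusted p = 0.531). Cdk6 was at 139, 139, 116 and 104 CPM in wild type, at 139, 105 and 120 CPM in heterozygous and at 94.3, 126 and 92.9 CPM in homozygous libraries, again overlapping, with a log2 fold change of -0.26 (SE 0.14, adjusted p = 0.206). The log2 ratio of Cdk6 to Cdk4 was -0.95 ± 0.295 in homozygous (SD, n = 3) and -0.76 ± 0.280 in wild-type libraries (SD, n = 4), and overlapped (exact permutation test, two-sided, p = 0.4). Against the heterozygous knockouts, Cdk4 differed by -0.16 (SE 0.08, adjusted p = 0.184); with library totals alone as the scaling this became -0.25 (adjusted p = 0.0321), and without homozygous library 1 it became -0.26 (adjusted p = 0.0292).

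Among the partners that act later in G1, Ccne1 and Cdk2 were slightly higher in the homozygous thymus. Ccne1 was at 35.9, 38.4, 37.4 and 36.2 CPM in wild type and at 59.9, 39.8 and 44.2 CPM in homozygous libraries. Cdk2 was at 133, 132, 136 and 137 CPM in wild type and at 189, 142 and 158 CPM in homozygous libraries. For both genes every homozygous library lay above every wild type, and homozygous library 1 lay well above the other 2. The log2 fold changes were 0.38 (SE 0.12) for Ccne1 and 0.28 (SE 0.08) for Cdk2, with edgeR adjusted p of 0.0367 and 0.0266. That library also had the lowest Usp7 level, 303 CPM, beside 422 and 408 CPM in the other 2; the part of this was not tested. Without homozygous library 1 the fold changes were 0.18 (adjusted p = 0.119) and 0.16 (adjusted p = 0.0868).

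Ccne2, the other E-type cyclin, was at 60.9, 56.2, 40.0 and 49.2 CPM in wild type and at 74.0, 46.3 and 52.1 CPM in homozygous libraries, which overlapped (log2 fold change 0.16, SE 0.16, edgeR adjusted p = 0.517). The log2 ratio of Ccne2 to Ccne1 was 0.25 ± 0.0450 in homozygous libraries (SD, n = 3) and spread from 0.10 to 0.76 over the wild types, with overlap. Exons of Ccne2 overlap Ints8, and those of Cdk2 overlap Pmel, on the other strand.

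Rb1, the brake that these kinases release, was at 170, 162, 138 and 156 CPM in wild type and at 213, 173 and 178 CPM in homozygous libraries. The homozygous libraries all lay above the wild types, and library 1 was again the highest. The log2 fold change was 0.26 (SE 0.08, adjusted p = 0.0377), and without homozygous library 1 it was 0.16 (adjusted p = 0.14). Exons of Rb1 overlap Lpar6 and Rcbtb2 on the other strand.

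Cdkn1b gave the estimate nearest to 0. It was at 225, 223, 188 and 213 CPM in wild type, at 196, 237 and 235 CPM in heterozygous and at 190, 218 and 236 CPM in homozygous libraries. The log2 fold change of 0.02 (SE 0.09) in the homozygous knockout came with an adjusted p of 0.921, and its sign turned in 5 of 20 alternative settings.

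In all, 5 of the 9 members other than Ccnd2 passed the threshold between homozygous and wild type, 4 higher and 1 lower. Over all features tested 25.8% passed, 12.5% higher and 13.2% lower. The same 5 members had groups that did not overlap, beside 32.7% of all features. Between homozygous and heterozygous knockouts, Ccnd1 (lower) and Ccnd3 (higher) passed, beside 17.1% of all features, 7.63% higher and 9.5% lower, and Ccnd1, Ccnd3, Cdk2 and Rb1 did not overlap, beside 33.3% of all features. The calls of Ccne1, Cdk2 and Rb1 depended on the setting: they passed in 7, 10 and 9 of 20 alternatives, with adjusted p from 0.00894 to 0.156, from 0.00559 to 0.166 and from 0.0124 to 0.198. Among other settings, library totals alone and a term for sex ended all 3 calls. With library totals alone the median log2 fold change of all features was -0.11, in place of -0.01, and 1435 features were called higher and 3506 lower, in place of 2446 and 2584.

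Leaving out 1 wild type could also end these calls. Ccne1 was lost without any of the wild types 1 to 4 (edgeR adjusted p of 0.083, 0.0634, 0.0645 and 0.067), Cdk2 without wild type 1 or 2 (0.0637 and 0.0656), and Rb1 without wild type 2, 3 or 4 (0.0612, 0.083 and 0.0647). The heterozygous libraries entered the estimate of spread, and without heterozygous library 1 or 2 Ccne1 was at adjusted p 0.0507 and 0.0513, and without library 2 or 3 Rb1 was at 0.0538 and 0.057. Cdk2 reached 0.05 without homozygous library 3.

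The numbers in the sample labels fall into a block of 44 to 51 and a block of 56 to 63. Within these blocks the homozygous minus wild-type log2 difference was -0.99 and -0.83 for Ccnd1, 0.57 and 0.53 for Ccnd3, and -2.18 and -2.13 for Ccnd2. It was 0.69 and 0.21 for Ccne1, 0.51 and 0.13 for Cdk2, and 0.45 and 0.17 for Rb1. Each block holds only 1 library of one of the groups, so no test was made within it.

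No member passed the threshold between heterozygous knockout and wild type. Of 10 members, 0 passed the threshold by edgeR, 0 by DESeq2 and 0 at an unadjusted p under 0.05, beside 0.0154% of all features by edgeR (3 of 19511, with 1421 at an unadjusted p under 0.05). None had groups that did not overlap, beside 8.69% of all features. Ccnd2 differed by -0.12 (SE 0.15, edgeR adjusted p = 0.91), Ccnd1 by -0.04 (SE 0.11) and Ccnd3 by 0.03 (SE 0.07). The wild types here also served in the fall that chose Ccnd2, so its estimate is not independent of the choice. The largest estimate was that of Ccne2, at 0.17 (SE 0.16, adjusted p = 0.882).

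**Figure D3:**
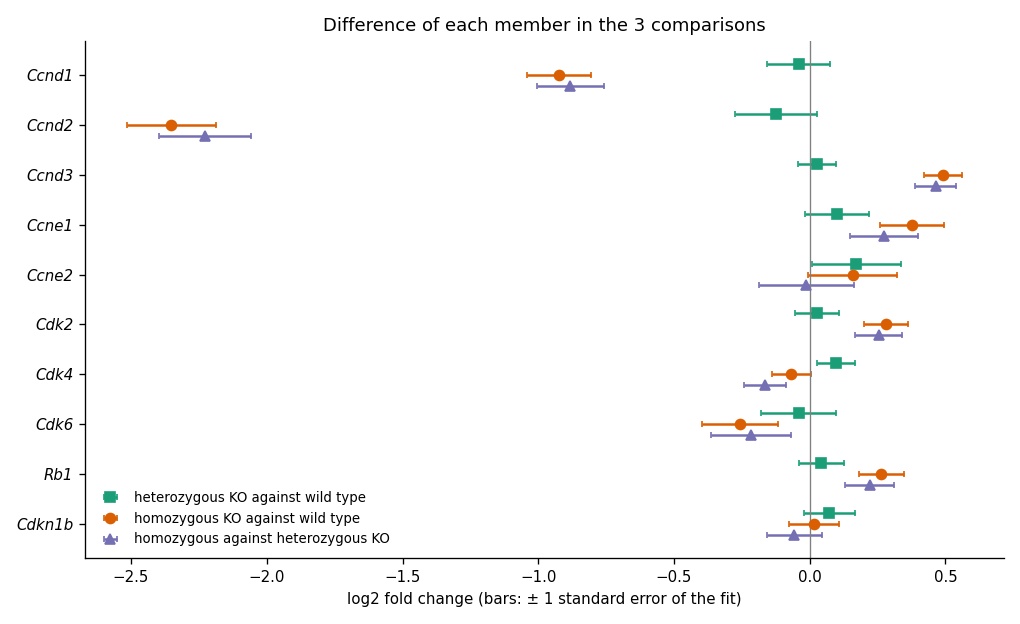
Log2 fold change (x axis, bars ± 1 standard error of the edgeR fit) of the 10 genes (rows) in the 3 comparisons (symbols). The heterozygous estimates lie between -0.12 and 0.17, whereas the homozygous estimates run from -2.35 for Ccnd2 to 0.49 for Ccnd3.

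Ranked per length in wild type, Ccnd3 stood first at 85.8 ± 6.68 CPM per kb, followed by Cdk4 at 64.7 ± 3.63, Cdkn1b at 46.6 ± 3.77 and Rb1 at 26.0 ± 2.24 (SD, n = 4). Cdk2 at 21.6 ± 0.357 and Ccnd2 at 19.8 ± 3.73 CPM per kb came next. Their ranges over the wild types overlapped, as did those of Ccnd2 and Ccne2 (14.8 ± 2.60) and of Ccne2 and Ccne1 (13.9 ± 0.425). Within each wild-type library, however, Ccnd2 lay above Ccne2. Cdk6 at 8.91 ± 1.26 and Ccnd1 at 1.62 ± 0.135 CPM per kb closed the order. The heterozygous order was the same. In the homozygous thymus, Ccnd2 went from rank 6 to rank 9, at 3.88 ± 0.788 CPM per kb (SD, n = 3), under Cdk6 at 7.46 ± 1.33 and above Ccnd1 at 0.851 ± 0.0828, with no overlap between these neighbours.

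The inhibitors of the G1 kinases held the 3 largest log2 fold changes among the 59 pathway genes tested, those of Cdkn2a, Cdkn1a and Cdkn2b. Cdkn2a and Cdkn2b had as few as 2 counts in a library, so the size of their fold changes is uncertain. Of 5 inhibitors tested, 4 rose and 1 fell in the homozygous knockout, where 12.5% of all features rose and 13.2% fell. Cdkn1a, the p21 inhibitor that p53 induces, was at 4.64, 5.92, 6.99 and 8.08 CPM in wild type, at 6.72, 7.45 and 9.20 CPM in heterozygous and at 46.0, 42.1 and 33.5 CPM in homozygous libraries. All homozygous libraries lay far above the rest, with a log2 fold change of 2.65 (SE 0.18, adjusted p = 3.74e-06). Cdkn2c, an INK4 inhibitor of Cdk4 and Cdk6, rose by 0.80 (SE 0.13, adjusted p = 0.00117). Cdkn1c, the p57 inhibitor, fell by 0.72 (SE 0.10, adjusted p = 0.000444). The INK4 genes Cdkn2a and Cdkn2b, named after their values were seen because they lie under the level set for naming, rose from 0.0978 to 1.07 CPM and from 0.183 to 0.487 CPM between the group means (adjusted p = 0.000589 and 0.0487). The call of Cdkn2b held in 4 of 20 alternative settings and was lost in the other 16, whereas the other 4 inhibitors were called in all 20.

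Genes downstream of E2F were higher as a group. Of 14 E2F-regulated genes of the G1/S transition, 14 rose in the homozygous knockout, where 12.5% of all features rose. Their median log2 fold change was 0.40, beside -0.01 over all features. Among them were Mybl2 (0.59, SE 0.09), a transcription factor of S and G2 phase, Rrm2 (0.58, SE 0.14), a subunit of ribonucleotide reductase, and Tyms (0.46, SE 0.11), which makes thymidylate. Their summed level was 3822 to 4203 CPM in wild type, 4291 to 4605 CPM in heterozygous and 6132, 4702 and 5033 CPM in homozygous libraries 1, 2 and 3. All homozygous sums exceeded all others, and all heterozygous sums exceeded the wild types. Homozygous library 1 stood highest, as it did for Ccne1, Cdk2 and Rb1. Without that library 13 of 14 passed, with a median of 0.31; with library totals alone 13 of 14 passed, with a median of 0.31.

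How many of these genes passed was lower with subsets of the wild types, which hold only 2 libraries each. The wild types with 1 wt word in their title are wild types 3 and 4, whose column names add "het". Against these 5 of 14 passed, with a median log2 fold change of 0.37. Against wild types 1 and 2, with 2 such words, 9 of 14 passed, with a median of 0.43. Over all features, 1047 and 1610 were called higher with these subsets, in place of 2446. In every setting run all 14 estimates were above 0 and none was called lower. In the heterozygous knockout 0 of 14 passed by edgeR and 2 were at an unadjusted p under 0.05, with 14 estimates above 0 and a median of 0.13. Between homozygous and heterozygous knockouts, 2 of 14 passed as higher, beside 7.63% of all features. That count was 8 without homozygous library 2 and ran from 1 to 8 over the alternatives, with Mybl2 called in all 20.

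The factors between Rb1 and these genes were mixed. Of 12 pocket proteins, E2F and DP factors, 5 rose, 2 fell and 5 did not pass in the homozygous knockout. Over all features 12.5% rose and 13.2% fell. E2f8 rose by 0.63 (SE 0.14), E2f2 by 0.42 (SE 0.11), E2f1 by 0.39 (SE 0.10) and E2f6 by 0.35 (SE 0.10), of which E2f1 and E2f2 are activators and E2f6 and E2f8 repressors. E2f5, a repressor, fell by 0.48 (SE 0.14), and Tfdp2, a dimerisation partner, fell by 0.31 (SE 0.08). The relatives of Rb1 did not pass, with log2 fold changes of 0.17 (SE 0.10) for Rbl1 and 0.06 (SE 0.05) for Rbl2. Between homozygous and heterozygous knockouts, 0 of 12 were called higher and 1 lower, Tfdp2, beside 7.63% and 9.5% of all features. Over all settings run of homozygous against wild type, between 1 and 7 of this list were called higher and between 0 and 2 lower. Both falls were lost without homozygous library 2, without homozygous library 3 and with the 1 wt-word wild types, and that of E2f5 in 7 of 20 alternatives in all. The rise of E2f6 was lost in 9, homozygous libraries 1 and 2 and wild types 1, 2 and 4 each among those left out.

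The cyclins and kinase of S and M phase rose together, in a comparison where 12.5% of all features rose and 13.2% fell. All 5 passed in the homozygous knockout: Ccnf (0.69, SE 0.19), Ccna2 (0.65, SE 0.11), Ccnb2 (0.58, SE 0.11), Cdk1 (0.51, SE 0.10) and Ccnb1 (0.47, SE 0.12), and at least 3 did so in every alternative setting. The call of Ccnf was lost in 4 of 20 alternatives, among them that without homozygous library 1. The summed level was 794 to 839 CPM in wild type and 1548, 983.5 and 1160 CPM in homozygous libraries 1, 2 and 3. Between homozygous and heterozygous knockouts 2 of 5 passed as higher, beside 7.63% of all features, and 0 to 5 over the alternatives. Of 6 genes of kinase activation, 3 rose, namely the phosphatases Cdc25b (0.46, SE 0.11) and Cdc25a (0.36, SE 0.06) and the opposing kinase Wee1 (0.43, SE 0.12), whereas the Cdk-activating kinase Cdk7, Ccnh and Mnat1 did not pass. Of 8 genes of G1 cyclin turnover tested, Cks1b (0.38, SE 0.09) and Cul1 (0.17, SE 0.05) rose and Skp1a (-0.26, SE 0.05) fell; these encode parts of the SCF ubiquitin ligase or its cofactor. Fbxw7 (-0.0010, SE 0.06) and Skp2 (0.30, SE 0.17), ligase subunits that recognise G1 cyclins or Cdkn1b, did not pass. Nor did Fbxo4 (-0.49, SE 0.18, edgeR adjusted p = 0.0734) and Ambra1 (-0.06, SE 0.08) of the same list. The homozygous libraries of Fbxo4, at 1.93 to 3.01 CPM, nevertheless all lay under the wild types. The rise of Cul1 was lost in 10 of 20 alternatives, among them those without homozygous library 1, wild type 1 or wild type 3, and that of Wee1 in 5, among them that without homozygous library 1.

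Regulators upstream of the D-type cyclins included 2 that rose and 1 that fell of 9. Notch1, the receptor that commits progenitors to the T lineage, was at 1022 to 1210 CPM in wild type and at 1750, 2767 and 2341 CPM in homozygous libraries (log2 fold change 1.06, SE 0.13, edgeR adjusted p = 0.000143). Mycn rose by 1.20 (SE 0.11, adjusted p = 2.61e-05), from 8.03 to 18.5 CPM. Myc, a growth factor-responsive activator of Ccnd2, was at 150, 145, 155 and 94.9 CPM in wild type and at 100, 87.6 and 73.3 CPM in homozygous libraries, which overlapped through wild type 4 (log2 fold change -0.64, SE 0.17, edgeR adjusted p = 0.015). The call of Myc was lost without homozygous library 3 and with the 1 wt-word wild types. Foxo1, Foxo3, Stat5a, Stat5b, Bcl6 and Ikzf1 did not pass. In these lists Ccnb1 and the genes that did not pass were named after their values were seen. Over all 59 pathway genes tested, 35 rose and 5 fell between homozygous and wild type, beside 12.5% and 13.2% of all features. In the heterozygous knockout 0 passed by edgeR and 0 by DESeq2. At an unadjusted p under 0.05 there were 5 by edgeR, beside 1421 of 19511 features. Between homozygous and heterozygous 10 rose and 3 fell, beside 7.63% and 9.5% of all features.

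**Figure D4:**
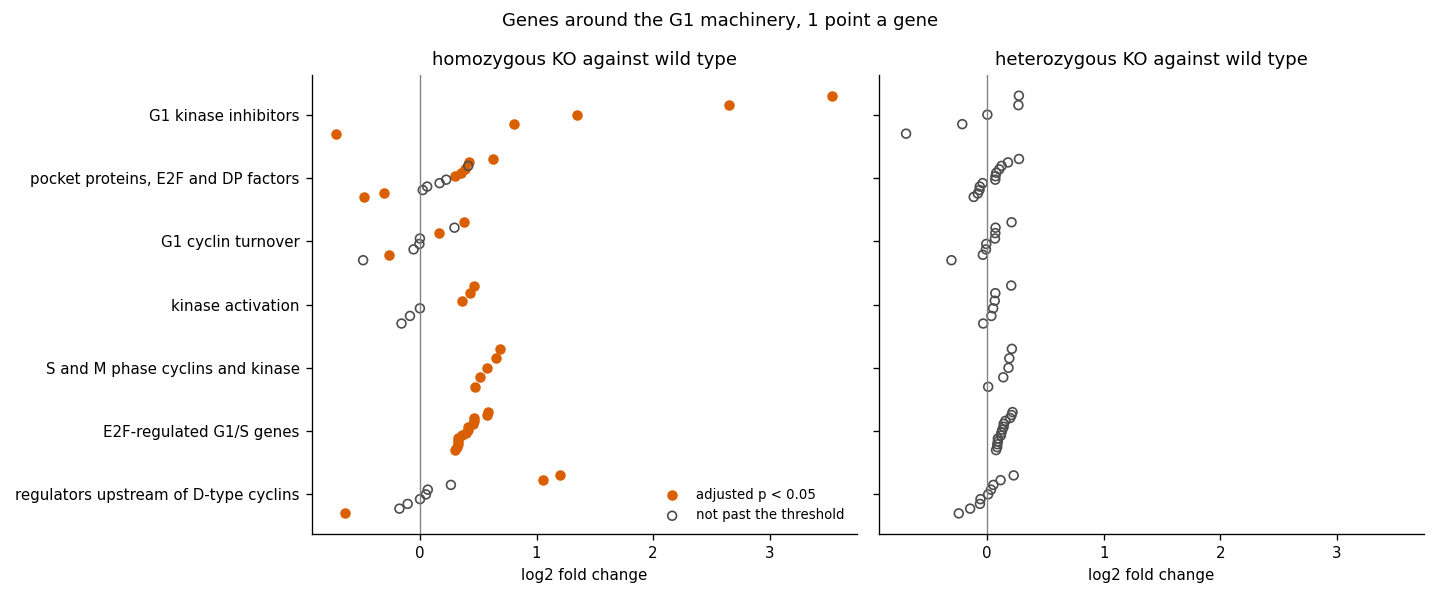
Log2 fold change (x axis) of each pathway gene (1 point a gene, rows are lists) in the homozygous (left) and heterozygous (right) knockout against wild type, filled where the edgeR adjusted p is under 0.05. All 14 E2F-regulated genes and all 5 S and M phase genes are filled on the left, and no point is filled on the right.

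Promoters were looked at for the motifs of E2F (TTTCCCGC, TTTGGCGC or TTTCGCGC), for the E-box CACGTG that Myc and Mycn can bind and for the cAMP response element TGACGTCA, on both strands. RefSeq promoter windows on GRCm38.p6, from 250 bases before to 50 after the start, were at hand for 6 members in 7 windows: Ccnd3 with 2, and Ccne1, Cdk2, Cdk4, Cdk6 and Cdkn1b. Of these 1 held an E2F motif, that of Cdk2, 140 bases before the start, against 1.84% of all 32851 promoters. Whether this motif bears on the level of Cdk2 was not tested. It is shown in capitals, as its reverse complement, at chr10:128705174-128705201 (minus strand), where the annotation also has an exon of Pmel on the other strand.
Cdk2: accaggaactGCGGGAAAgttgtgcagc
The Cdk4 window held 4 E-boxes and that of Cdk6 held 1, against 7.15% of all promoters with at least 1. Both windows of Ccnd3 and those of Ccne1 and Cdkn1b held none of these letters, which says nothing of sites outside them. Windows of Ccnd1, Ccnd2, Ccne2 and Rb1 were not analysed here.

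Markers of cell types moved beside the D-type cyclins, in a comparison where 12.5% of all features were called higher and 13.2% lower. Of 6 dendritic cell markers, 6 fell in the homozygous knockout, and their summed level was 30.8 to 46.1 CPM in wild type and 3.86 to 5.78 CPM in homozygous libraries, with Siglech at 3 counts or fewer in each. Of 7 B-cell markers, 6 fell, and Ms4a1 and Igkc were at 3 counts or fewer in all 3 homozygous libraries. The B-cell sum, 329 to 394 CPM in wild type and 294 to 335 CPM in homozygous libraries, was mostly Ighm, which did not pass (-0.02, SE 0.07).

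Thymocyte markers differed less uniformly. Of 5 markers of mature single-positive thymocytes, 4 fell (Ccr7, Klf2, S1pr1 and Il7r), and the sum was 246 to 350 CPM in wild type and 146 to 198 CPM in homozygous libraries. Of 9 double-positive markers, Cd8a rose and Rag1 and Dntt fell, with sums of 12110 to 13870 and 10560 to 10760 CPM. Of 6 early progenitor and double-negative markers, Notch3 rose and Kit and Cd44 fell, with sums of 447 to 603 and 498 to 1094 CPM. Of 7 myeloid markers, S100a8 and S100a9 rose and Csf1r and Adgre1 fell, with sums of 58.9 to 69.7 and 55.99 to 213 CPM.

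Stromal markers also differed in part. Of 7 thymic epithelial markers, Krt5 and Krt14 rose and Aire fell, with sums of 41.4 to 61.03 and 43.3 to 118 CPM, and of 5 fibroblast markers, 3 collagen genes rose, with sums of 4.22 to 12.9 and 10.3 to 32.0 CPM. None of 5 erythroid markers (318 to 1690 and 201 to 2023 CPM) and none of 4 endothelial markers (144 to 157 and 151 to 157 CPM) passed by edgeR, with 1 of each at an unadjusted p under 0.05. In the heterozygous knockout no marker of any list passed. The part of these cell types in the differences of the cyclins was not tested.

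**Figure D5:**
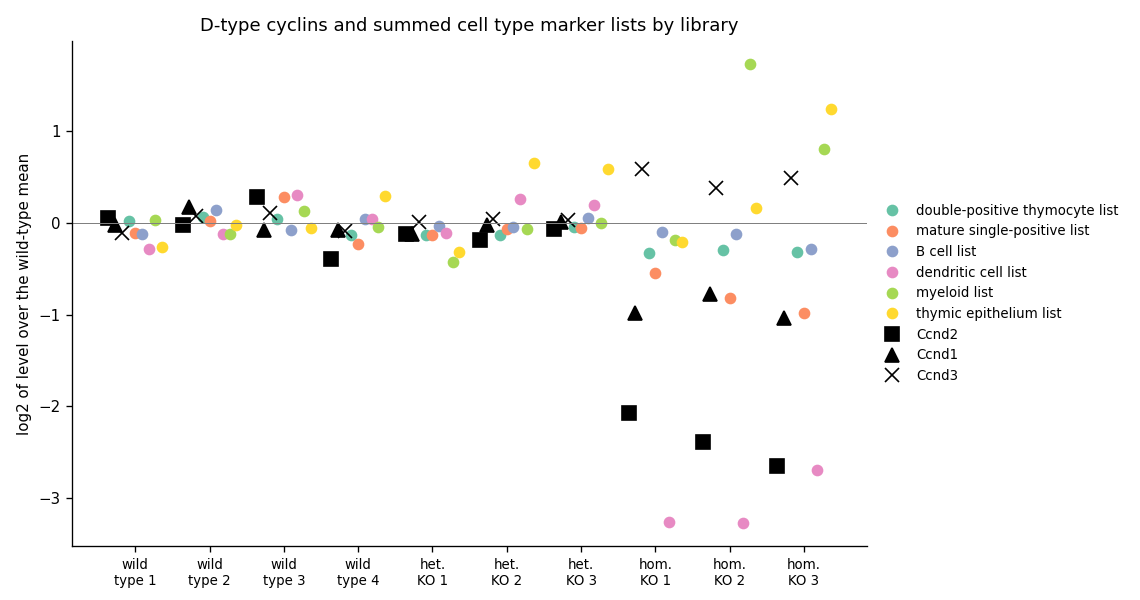
Log2 of the level over the wild-type mean (y axis) in each of the 10 libraries (x axis) for Ccnd1, Ccnd2 and Ccnd3 (black) and for the summed markers of 6 cell types (colours). In the homozygous libraries Ccnd2 and the dendritic cell sum lie lowest, Ccnd3 lies above 0, and the B-cell sum, which is mostly Ighm, stays near 0.

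The genes whose levels followed Ccnd2 most closely were sought over the 10 libraries, as Pearson's r of log2 CPM among 9849 features with an annotated symbol and an adequate level. The points share the same 10 libraries and the same genotype groups, so r is given as a description. Cd53, a leukocyte tetraspanin, had r = 0.997, Sytl2, a Rab27 effector, 0.995, Ifi206 0.994, St6gal1, a sialyltransferase, 0.993 and Plekha1 0.992. Cd53 went from 57.6 ± 8.65 CPM in wild type (SD, n = 4) to 12.1 ± 3.72 CPM in homozygous libraries (SD, n = 3) and St6gal1 from 89.2 ± 20.8 to 10.6 ± 4.57 CPM. The most opposite patterns were those of Sntb2 (-0.995), Ccdc141 (-0.992) and Ppp1r12a (-0.988). Within the set, r with Ccnd2 was 0.961 for Ccnd1 and -0.891 for Ccnd3, and lay between -0.708 and 0.551 for the other 7.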

How the data were processed

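Thymus RNA of 10 mice was sequenced after ribosomal depletion. The authors deposited raw counts per gene; per the labels' processing notes CASAVA, STAR 2.4.1d and HTSeq 0.6.1p1 were used with NCBIM37 (mm9). The annotation release and strand setting are not given in the sources used here. Groups came from the titles. Column names of wild types 3 and 4, those with 1 wt word in the title, add "het", and their titles decided. Usp7 was at 594 and 589 CPM in these, and at 676 and 670 CPM in wild types 1 and 2. In the heterozygous libraries it was at 472 to 516 CPM. Symbols came from GENCODE M21 (GRCm38, another build), which matched 30204 of 34467 Ensembl identifiers. Cdkn2d and Fbxo31 were not analysed here. Labels name separate animals, and p-values measure the spread between these libraries.

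Counts were fitted with edgeR 4.0.16 in R 4.3.3 (filterByExpr, TMM scaling, quasi-likelihood test) over all 10 libraries, with Benjamini-Hochberg adjustment over 19511 features and calls at an adjusted p under 0.05. The common biological coefficient of variation was 0.207. DESeq2 1.42.0, other scalings, no filter, blocks, sex and each library left out were tried. The fit was tested on simulated data. Log2 levels had a prior count of 2. A marker was called at the floor at 3 counts or fewer.

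Members and gene lists were chosen with earlier results of these data known. Named were all members, from each pathway list up to 4 genes called in each direction and a mean log2 CPM no lower than 2, plus the 5 most and 3 least like Ccnd2. Some genes of these lists are not reported here by name. No depth interval is given for means, and counting error was not estimated apart from the spread between libraries of 39.8 to 122 M counts. Genes with few counts are the most open to it: the lowest library held 2 counts of Cdkn2a, 2 of Cdkn2b and 304 of Ccnd1.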

Additional observations from a re-analysis of the deposited data

Results flagged for a closer look

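Values were checked for 1 library standing apart in 75 wild-type groups of 4 libraries, 1 for each gene or within-library ratio. Of these 2 were found, where chance gives about 1 in 20. Cdc6, which loads the replicative helicase, was lowest in wild type 3 at 98.0 CPM, against 109, 109 and 111 CPM in the others, a gap of 0.837 of the range. Mcm2, a subunit of that helicase, was lowest in wild type 1 at 302 CPM, against 325, 329 and 330 CPM, a gap of 0.843 of the range. Groups of 3 libraries were not checked.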

How the results depend on the processing

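The falls of Ccnd2 and Ccnd1 and the rise of Ccnd3 in the homozygous knockout kept their direction in all 20 alternatives, with ranges of -2.52 to -2.21, -1.02 to -0.85 and 0.40 to 0.55. Against 5 members called between homozygous and wild type, 2 were called with library totals alone, with a sex term, with the 2 wt-word wild types and with only the groups compared, 3 with the 1 wt-word wild types, and 2 to 5 with 1 library left out. The replicate block gave 3. The shared numbers do not pair the samples (r of same-numbered libraries from -0.104 to 0.225). With that block 5 features were called in the heterozygous knockout, in place of 3. Of the pathway lists, E2F-regulated genes called between homozygous and heterozygous went from 2 to 4 and kinase activation from 1 to 0 higher, and in homozygous against wild type turnover genes called higher went from 2 to 1 and upstream regulators called lower from 1 to 2. Upstream regulators called lower between homozygous and heterozygous went from 0 to 1, and kinase activation called lower in homozygous against wild type from 0 to 1.

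Of 40 pathway genes, 17 were called with the 1 wt-word and 25 with the 2 wt-word wild types, each a set of 2 libraries. Over all genes 2670 were called with the 1 wt-word wild types, in place of 5030. Heterozygous calls were 58 with DESeq2 and 2 to 6 with 1 library left out. Between homozygous and heterozygous, pathway calls went from 13 to 20 with DESeq2, 21 with the animal-number block, 8 with only the groups compared and 8 to 25 with 1 library left out, and calls over all genes from 3342 to between 2153 (without heterozygous library 3) and 3370. The longest transcript gave Ccnd2 shares of 12.9%, 11.9% and 2.05%. The causes were not tested.

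Estimates near 0 turned sign. In homozygous against wild type these were Ccne2 (-0.026) and Cdk4 (0.0026) with the 2 wt-word wild types, and Cdkn1b with those (-0.064), library totals alone (-0.076) and the animal-number block (-0.062). In heterozygous against wild type they were Ccnd1 (0.035) and Cdk6 (0.14) with the 1 wt-word wild types, Ccnd2 (0.033), Cdk6 (0.024) and Cdkn1b (-0.0061) with the animal-number block, Ccne2 (-0.026) and Rb1 (-0.061) with the sex term, and Ccne2 (-0.013), Rb1 (-0.042) and Cdkn1b (-0.0069) with the 2 wt-word wild types. Between homozygous and heterozygous, Ccne2 was 0.075 with the sex term.

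With 1 library left out, ranges that crossed 0 in homozygous against wild type were -0.068 to 0.30 for Ccne2, -0.15 to 0.0076 for Cdk4 and -0.052 to 0.093 for Cdkn1b. In the heterozygous knockout they were -0.070 to 0.018 for Ccnd1, -0.0076 to 0.066 for Ccnd3, -0.14 to 0.058 for Cdk6 and -0.012 to 0.085 for Rb1. Between homozygous and heterozygous they were -0.25 to 0.12 for Ccne2 and -0.15 to 0.015 for Cdkn1b. The log2 ratio differences were -0.17 to 0.062 for Ccnd2 to Ccnd1 and -0.036 to 0.19 for Ccne2 to Ccne1 (heterozygous against wild type), and -0.20 to 0.093 for Cdk6 to Cdk4 (homozygous against heterozygous).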
